A study of Mus musculus with 10 samples.

Results

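The methionine and homocysteine cycle was followed through 10 liver genes, Mat1a, Mat2a, Gnmt, Nnmt, Pemt, Ahcy, Bhmt, Bhmt2, Cbs and Cth, among the 56748 genes of the deposited table. They were chosen by gene symbol for their place in the pathway, each symbol matched 1 row, and all 10 were expressed above the minimum for testing. RNA was sequenced from 3 groups of mouse liver samples: 3 Akt/Nras/Foxo1AAA tumours, 3 Akt/Nras tumours and 4 normal livers of FVB wild-type mice, and the labels give every sample the genotype WT. The tumours model hepatocellular carcinoma and were raised by hydrodynamic tail vein injection, a fast, large-volume injection that carries plasmid DNA into hepatocytes. Both tumour groups therefore share the injected Akt and Nras, and Foxo1AAA, a form of the transcription factor FOXO1 that AKT cannot inactivate by phosphorylation, is the agent by which they differ. Sex and age are not given, nothing says that the normal livers were injected, and separate mice are not stated, so the p-values reflect only the spread among these libraries.

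The liver makes most of the body's S-adenosylmethionine, the methyl donor of the cell, from methionine and ATP. Methyltransferases turn it into S-adenosylhomocysteine, which is split into adenosine and homocysteine. Homocysteine is then either methylated back to methionine, with betaine or folate as the donor, or passed on through cystathionine to cysteine, the precursor of glutathione and taurine.

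Expression is given as FPKM, reads per kilobase of gene and per unit of sequencing depth as scaled by the authors, and the reads behind it ranged over 15.4 to 20.7 M in Akt/Nras/Foxo1AAA libraries, 16.2 to 21.3 M in Akt/Nras libraries and 13.6 to 17.5 M in normal liver libraries. Changes were tested with limma on log2(FPKM + 1) over 12439 genes, and a gene was called at a Benjamini-Hochberg adjusted p under 0.05; log2 changes below are on that scale with their standard error, and folds are ratios of mean FPKM. Foxo1, the gene added in one tumour group, read 77.9 to 124.9 FPKM in Akt/Nras/Foxo1AAA tumours, 5.37 to 6.05 FPKM in Akt/Nras tumours and 6.75 to 8.02 FPKM in normal livers, in the order of the labels. The libraries differ in their FPKM totals, which were 413812.4 to 444893 in Akt/Nras/Foxo1AAA tumours, 349618.6 to 381653.1 in Akt/Nras tumours but 692009.9 to 743202.8 in normal livers. With every library rescaled to the same total, called equal totals below, the median log2 change of all tested genes was 0.47 instead of -0.09 when Akt/Nras/Foxo1AAA tumours were set against normal liver, 0.70 instead of -0.07 when Akt/Nras tumours were, and -0.21 instead of -0.01 between the tumour groups. In bulk samples such as these, fewer cells of a type and less RNA per cell cannot be told apart.

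In Akt/Nras tumours 8 of the 10 genes fell against normal liver: Gnmt, Ahcy, Pemt, Cth, Mat1a, Bhmt2, Bhmt and Nnmt. The largest of these changes was 12.7-fold, in Gnmt, the liver's main consumer of surplus S-adenosylmethionine. Mat2a, the methionine adenosyltransferase of tissues other than adult liver, rose 1.37-fold, and Cbs did not pass the test. Of all tested genes 37.9% were called lower and 31.1% higher, 69.0% together, and the groups did not overlap for 8 of the 10 genes and for 68.3% of all genes. The median log2 change of the 10 genes was -2.16, beside -0.07 over all genes. With equal totals 6 of the genes were called lower and 2 higher, Cbs joining Mat2a, while the calls of Bhmt and Nnmt were lost and the median was -1.20. At that scaling 69.2% of all genes were called higher and 13.8% lower, 83.0% together.

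In Akt/Nras/Foxo1AAA tumours 6 genes fell against the same normal livers, namely Gnmt, Ahcy, Pemt, Mat1a, Cth and Bhmt2, by between 2.11-fold and 9.0-fold. Mat2a rose 1.33-fold, and Bhmt, Cbs and Nnmt did not pass the test. Over all genes 36.5% were called lower and 26.8% higher, 63.3% together. The groups did not overlap for 8 of the 10 genes, beside 65.4% of all genes, and the median log2 change was -1.32, beside -0.09. With equal totals the same number, 6, was lower, and 3 were higher, Mat2a, Bhmt and Cbs, with a median of -0.61, where 61.0% of all genes were called higher and 13.5% lower, 74.5% together. The comparisons of the tumour groups with normal liver share their 4 normal livers, so their values are set side by side and not counted as separate evidence.

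Set against Akt/Nras tumours, Akt/Nras/Foxo1AAA tumours had higher Bhmt, Cth, Pemt and Bhmt2, by 3.28-fold, 2.16-fold, 1.91-fold and 1.74-fold, and none of the 10 genes was lower by limma, also at an unadjusted p under 0.05 and with voom. Over all genes 7.93% were called higher and 4.13% lower, 12.1% together, and the groups did not overlap for 5 of the 10 genes, beside 31.9% of all genes. The median log2 change of the 10 genes was 0.64, beside -0.01. With equal totals 4 of the genes were called higher and 1, Cbs, lower, with a median of 0.39, beside -0.21 over all genes. At that scaling 5.27% of all genes were called higher and 26.0% lower, 31.3% together. The calls at both scalings borrow the spread of the normal livers. At the deposited scale, with the 6 tumour libraries alone in the fit, limma called 0 of the 10 genes, with 5 at an unadjusted p under 0.05, and called 10 of all genes. The share of all genes at an unadjusted p under 0.05 in that fit is not given here. The adjusted p were then 0.0522 for Cth, 0.0724 for Bhmt, 0.0915 for Pemt and 0.0936 for Bhmt2. Bhmt2 and Pemt also lost their calls without Akt/Nras/Foxo1AAA replicate 1 (adjusted p = 0.0623 for Bhmt2 and 0.0674 for Pemt), without Akt/Nras/Foxo1AAA replicate 2 (0.0589 and 0.0661) and without Akt/Nras replicate 2 (0.0541 and 0.0514). Bhmt and Cth kept theirs when any 1 of the 6 tumour libraries was left out.

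**Figure D1:**
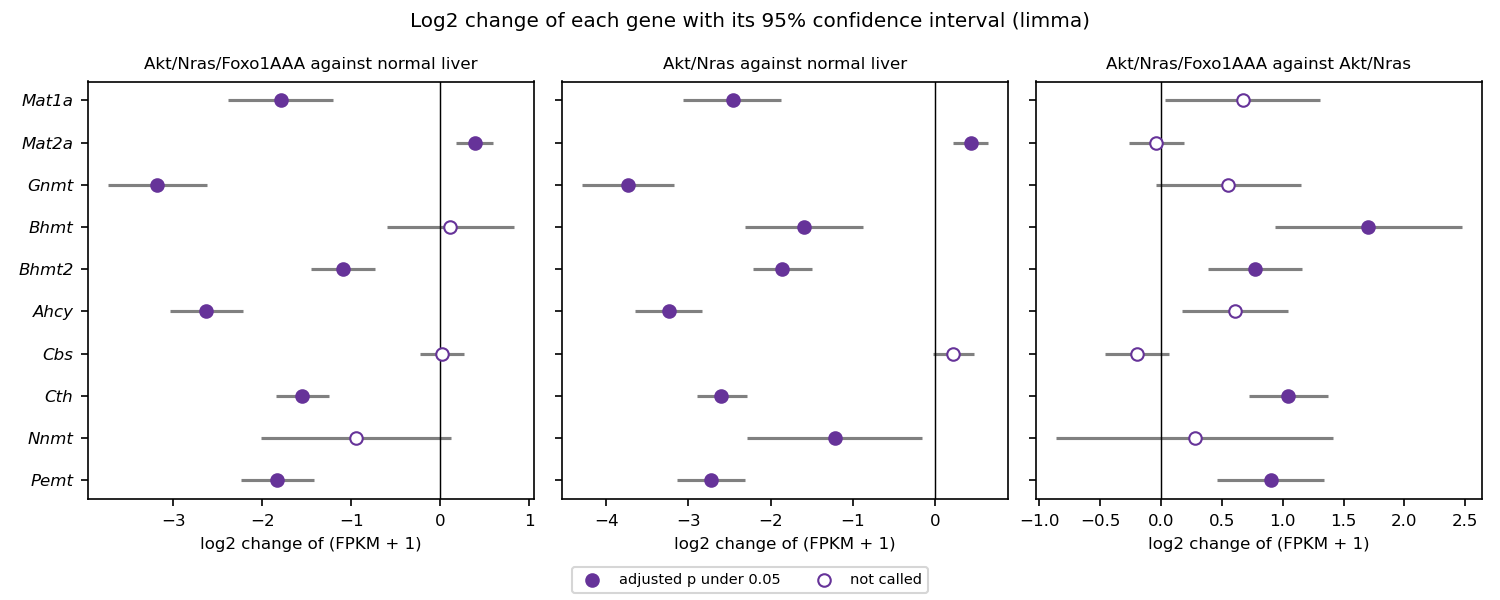
Log2 change of (FPKM + 1) of the 10 genes in each comparison, with the 95% confidence interval from limma as a bar; filled points passed the adjusted p of 0.05 and open points did not. Gnmt lies farthest to the left in both comparisons with normal liver, at -3.18 in Akt/Nras/Foxo1AAA and -3.73 in Akt/Nras tumours, Mat2a lies to the right of 0 in both, and between the tumour groups the filled points are Bhmt, Bhmt2, Cth and Pemt.

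The level of each gene orders the pathway differently in the 3 groups. In normal liver Gnmt was the most abundant at 1769 ± 198 FPKM (SD, n = 4), the 44th most abundant gene of the table. It was followed by Mat1a, Ahcy, Bhmt, Pemt, Bhmt2, Cth, Cbs, Mat2a and Nnmt, and the ranges over libraries of Ahcy and Bhmt, of Bhmt and Pemt, of Cth and Cbs and of Mat2a and Nnmt overlapped. In Akt/Nras/Foxo1AAA tumours Bhmt came first at 376 ± 165 FPKM (SD, n = 3), then Mat1a, Gnmt, Pemt, Bhmt2, Ahcy, Cbs, Mat2a, Cth and Nnmt. Bhmt was above Mat1a in 2 of 3 libraries, and ranges overlapped from Pemt down to Cbs. In Akt/Nras tumours the order was Mat1a, Gnmt, Bhmt, Cbs, Pemt, Bhmt2, Ahcy, Mat2a, Cth and Nnmt, and Mat2a and Cth were the sole neighbours whose ranges did not overlap. Summed over the 10 genes, FPKM came to 1053 to 1588 in Akt/Nras/Foxo1AAA tumours, 457.9 to 850.6 in Akt/Nras tumours but 3789 to 4644 in normal livers, so the lowest normal liver lay above the highest tumour. These orders and sums leave out Ahcyl, a near-identical copy of Ahcy described below. Its means were 172 FPKM in Akt/Nras/Foxo1AAA tumours, 109 in Akt/Nras tumours and 1052 in normal livers. How reads common to both copies were counted is not stated. The place of Ahcy in each order and its part of each sum are therefore uncertain.

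**Figure D2:**
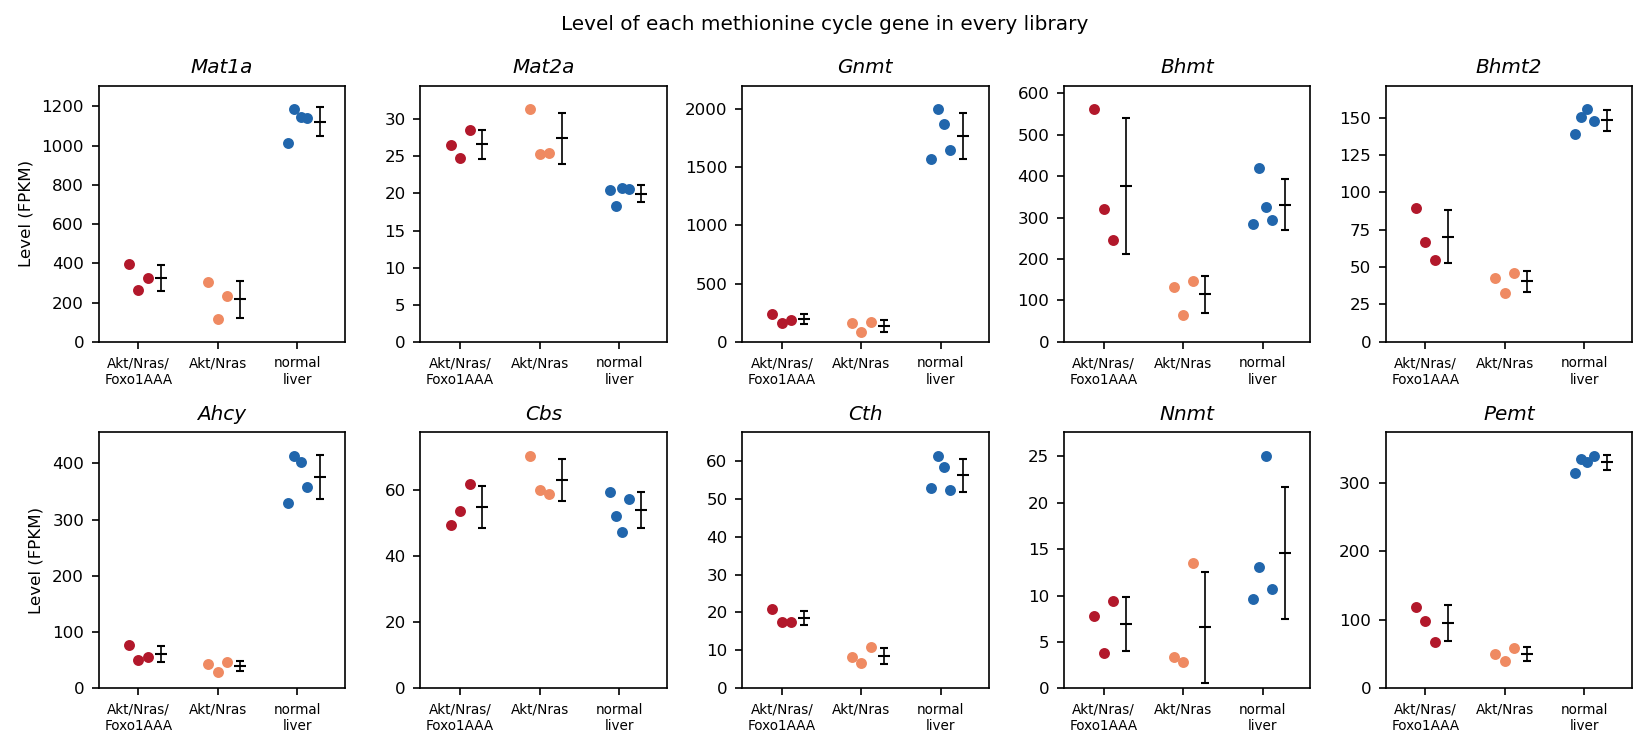
FPKM of each gene in every library, with the group mean as a line, for 3 Akt/Nras/Foxo1AAA tumours, 3 Akt/Nras tumours and 4 normal livers; each panel has its own linear axis from 0. Gnmt, Mat1a, Ahcy, Bhmt2, Cth and Pemt are highest in normal liver, the Akt/Nras/Foxo1AAA values of Bhmt overlap those of normal liver, and Mat2a is the one gene whose tumour libraries all lie above the normal livers.

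The first step, the making of S-adenosylmethionine, is carried out by methionine adenosyltransferases, of which Mat1a encodes the catalytic subunit of adult liver and Mat2a that of most other tissues. Mat1a (ENSMUSG00000037798, chromosome 14, 40826992 to 40846369, plus strand, in the deposited table's coordinates, whose build is not named) had 394, 262 and 323 FPKM in Akt/Nras/Foxo1AAA tumours, 304, 117 and 231 FPKM in Akt/Nras tumours, and 1012, 1185, 1147 and 1143 FPKM in normal livers. Every tumour lay below every normal liver, and the tumour groups overlapped. It fell 3.43-fold in Akt/Nras/Foxo1AAA tumours (log2 change -1.79 ± 0.27 SE, adjusted p = 0.000189) and 5.16-fold in Akt/Nras tumours (-2.46 ± 0.27 SE, adjusted p = 1.36e-05). Between the tumour groups the log2 difference of 0.67 did not pass the test (95% interval 0.03 to 1.31 before adjustment, adjusted p = 0.155).

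Mat2a (ENSMUSG00000053907, chromosome 6, 72409782 to 72416541, minus strand) had 26.5, 24.7 and 28.6 FPKM in Akt/Nras/Foxo1AAA tumours, 31.3, 25.4 and 25.5 FPKM in Akt/Nras tumours, and 20.5, 18.2, 20.7 and 20.5 FPKM in normal livers. All 6 tumours lay above all 4 normal livers, by a small margin. The rise was 1.33-fold in Akt/Nras/Foxo1AAA tumours (log2 change 0.39 ± 0.09 SE, adjusted p = 0.00404) and 1.37-fold in Akt/Nras tumours (0.43 ± 0.09 SE, adjusted p = 0.002). With equal totals the log2 changes were 1.08 in Akt/Nras/Foxo1AAA and 1.36 in Akt/Nras tumours, so the size of this rise depends on the scaling and its direction did not. The difference between the tumour groups was -0.04 (95% interval -0.26 to 0.19). Mat2a overlaps Particl on the opposite strand, which reached 3.06 FPKM, and whether the counting used strand is not stated.

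The ratio of Mat2a to Mat1a within a library does not depend on how libraries were scaled. It was 0.0672, 0.0942 and 0.0884 in Akt/Nras/Foxo1AAA tumours, 0.103, 0.216 and 0.11 in Akt/Nras tumours, and 0.0202, 0.0154, 0.0181 and 0.0180 in normal livers. The 3 groups did not overlap, with normal livers lowest and Akt/Nras tumours highest, and Mat1a remained the more abundant of the pair in every library.

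Gnmt and Pemt are the methyltransferases that use much of the liver's S-adenosylmethionine: GNMT methylates glycine to sarcosine when methionine is plentiful, and PEMT methylates phosphatidylethanolamine to phosphatidylcholine. Gnmt (ENSMUSG00000002769, chromosome 17, 47036590 to 47040094, minus strand) had 240.9, 158 and 191 FPKM in Akt/Nras/Foxo1AAA tumours, 165, 80.2 and 172 FPKM in Akt/Nras tumours, and 1568, 1994, 1870 and 1643 FPKM in normal livers. The highest tumour was far below the lowest normal liver, and the tumour groups overlapped. The fall was 9.0-fold in Akt/Nras/Foxo1AAA tumours (log2 change -3.18 ± 0.25 SE, adjusted p = 1.96e-06) and 12.7-fold in Akt/Nras tumours (-3.73 ± 0.25 SE, adjusted p = 3.75e-07), and Gnmt was the 237th most abundant gene in Akt/Nras/Foxo1AAA and the 303rd in Akt/Nras tumours. The log2 difference between the tumour groups, 0.55, did not pass the test (95% interval -0.04 to 1.15, adjusted p = 0.201).

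Pemt (ENSMUSG00000000301, chromosome 11, 59861440 to 59937315, minus strand) had 119, 98.1 and 67.1 FPKM in Akt/Nras/Foxo1AAA tumours, 50.5, 39.2 and 59.5 FPKM in Akt/Nras tumours, and 314, 336, 330.4 and 339.7 FPKM in normal livers. The 3 groups were separate, with Akt/Nras/Foxo1AAA tumours in the middle. Pemt fell 3.48-fold in Akt/Nras/Foxo1AAA tumours (log2 change -1.83 ± 0.19 SE, adjusted p = 1.17e-05) and 6.64-fold in Akt/Nras tumours (-2.73 ± 0.19 SE, adjusted p = 4.1e-07). It was 1.91-fold higher in Akt/Nras/Foxo1AAA than in Akt/Nras tumours (0.90 ± 0.20 SE, adjusted p = 0.019).

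Nnmt (ENSMUSG00000032271, chromosome 9, 48503177 to 48516453, minus strand) encodes the enzyme that methylates nicotinamide, and by mean it was the least abundant of the 10 genes in every group, with 80 to 453 reads per library. It had 7.76, 3.76 and 9.42 FPKM in Akt/Nras/Foxo1AAA tumours, 3.36, 2.86 and 13.5 FPKM in Akt/Nras tumours, and 9.59, 13.1, 25.1 and 10.7 FPKM in normal livers. Akt/Nras replicate 3 lay within the normal range, and the highest Akt/Nras/Foxo1AAA tumour lay just under the lowest normal liver. The fall in Akt/Nras tumours (2.22-fold, log2 change -1.22 ± 0.48 SE) passed narrowly at an adjusted p of 0.0409 and was lost without Akt/Nras replicate 1 (0.144) or 2 (0.163) or normal liver replicate 2 (0.067) or 3 (0.104), and with equal totals (0.47). In Akt/Nras/Foxo1AAA tumours the log2 difference was -0.95 (95% interval -2.01 to 0.12, adjusted p = 0.107). The ratio of Nnmt to Gnmt was 0.0351 ± 0.0131 in Akt/Nras/Foxo1AAA tumours, 0.0448 ± 0.0302 in Akt/Nras tumours (SD, n = 3 each) and 0.00814 ± 0.00351 in normal livers (SD, n = 4), and every tumour lay above every normal liver in it.

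Ahcy encodes S-adenosylhomocysteine hydrolase, which removes the product that inhibits methyltransferases. Ahcy (ENSMUSG00000027597, chromosome 2, 154901230 to 154916417, minus strand) had 77.4, 49.9 and 55.0 FPKM in Akt/Nras/Foxo1AAA tumours, 43.7, 29.2 and 46.0 FPKM in Akt/Nras tumours, and 330.1, 413, 403 and 357 FPKM in normal livers. All tumours were far below all normal livers. The fall was 6.19-fold in Akt/Nras/Foxo1AAA tumours (log2 change -2.63 ± 0.18 SE, adjusted p = 9.38e-07) and 9.49-fold in Akt/Nras tumours (-3.24 ± 0.18 SE, adjusted p = 1.3e-07). The tumour groups did not overlap, but their log2 difference of 0.61 did not pass the test (95% interval 0.17 to 1.04 before adjustment, adjusted p = 0.0726).

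The level of Ahcy is uncertain because reads are shared with a near-identical copy, Ahcyl, on chromosome 16 (45973348 to 45975440). Of the 2799 stretches of 50 bases in the Ahcy transcripts of the GENCODE annotation, 66.0% also occur in Ahcyl, and 90.4% of those of Ahcyl occur in Ahcy. Ahcyl was listed at 172 ± 38.6 FPKM in Akt/Nras/Foxo1AAA tumours, 109 ± 26.6 FPKM in Akt/Nras tumours (SD, n = 3 each) and 1052 ± 119 FPKM in normal livers (SD, n = 4). Its ratio to Ahcy was 2.69 to 3.03 in every library, and its log2 changes against normal liver, -2.62 in Akt/Nras/Foxo1AAA and -3.28 in Akt/Nras tumours, are set beside -2.63 in Akt/Nras/Foxo1AAA and -3.24 in Akt/Nras tumours for Ahcy. How reads common to both copies were counted is not stated, so the level and the change of each alone are uncertain.

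Bhmt and Bhmt2 are neighbours on chromosome 13 and return a methyl group to homocysteine, BHMT from betaine and BHMT2 from S-methylmethionine. Bhmt (ENSMUSG00000074768, 93753183 to 93774469, minus strand) had 562, 321 and 246 FPKM in Akt/Nras/Foxo1AAA tumours, 132, 64.7 and 147 FPKM in Akt/Nras tumours, and 284, 421, 326 and 294 FPKM in normal livers. Every Akt/Nras/Foxo1AAA tumour lay above every Akt/Nras tumour. Akt/Nras/Foxo1AAA replicate 1 lay above all normal livers, replicate 2 within their range and replicate 3 below all of them. Relative to Akt/Nras tumours, Bhmt was 3.28-fold higher in Akt/Nras/Foxo1AAA tumours (log2 change 1.70 ± 0.34 SE, adjusted p = 0.0134). Against normal liver it fell 2.89-fold in Akt/Nras tumours (-1.59 ± 0.32 SE, adjusted p = 0.00118), a call lost with equal totals (-0.62, adjusted p = 0.0674).

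In Akt/Nras/Foxo1AAA tumours the log2 difference of Bhmt from normal liver was 0.11 and did not pass the test (95% interval -0.60 to 0.83, adjusted p = 0.777). That value rests on single libraries and on the scaling: it was -0.22 without Akt/Nras/Foxo1AAA replicate 1, and with equal totals it was 0.83 and was called (adjusted p = 0.0233). The processed copy Bhmt-ps1 shares 13.5% of the 50-base stretches of Bhmt, and its FPKM was 0.00614 to 0.0116 of that of Bhmt in the 10 libraries. Gm15622, which overlaps Bhmt on the opposite strand, reached 3.28 FPKM.

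Bhmt2 (ENSMUSG00000042118, 93792228 to 93810810, minus strand) had 89.5, 66.9 and 54.7 FPKM in Akt/Nras/Foxo1AAA tumours, 42.6, 32.4 and 46.2 FPKM in Akt/Nras tumours, and 139, 151, 156 and 148 FPKM in normal livers. Unlike Bhmt, it was lower in all tumours than in all normal livers, and the tumour groups did not overlap. It fell 2.11-fold in Akt/Nras/Foxo1AAA tumours (log2 change -1.09 ± 0.16 SE, adjusted p = 0.000178) and 3.67-fold in Akt/Nras tumours (-1.86 ± 0.16 SE, adjusted p = 2.5e-06). It was 1.74-fold higher in Akt/Nras/Foxo1AAA than in Akt/Nras tumours (0.77 ± 0.17 SE, adjusted p = 0.0205). The ratio of Bhmt2 to Bhmt was 0.159, 0.209 and 0.222 in Akt/Nras/Foxo1AAA tumours, 0.323, 0.501 and 0.314 in Akt/Nras tumours, and 0.489, 0.358, 0.477 and 0.502 in normal livers. Akt/Nras/Foxo1AAA tumours were the lowest in it, and the other two groups overlapped.

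Cbs and Cth carry homocysteine through transsulfuration: cystathionine beta-synthase joins it to serine, and cystathionine gamma-lyase releases cysteine. Cbs (ENSMUSG00000024039, chromosome 17, 31827868 to 31856212, minus strand) had 49.3, 53.5 and 61.5 FPKM in Akt/Nras/Foxo1AAA tumours, 70.2, 59.9 and 58.7 FPKM in Akt/Nras tumours, and 59.4, 51.9, 47.3 and 57.2 FPKM in normal livers. The groups overlapped, and no comparison passed the test, with log2 differences of 0.02 (95% interval -0.23 to 0.27) between Akt/Nras/Foxo1AAA tumours and normal liver, 0.22 (-0.03 to 0.47) between Akt/Nras tumours and normal liver, and -0.20 (-0.46 to 0.07) between the tumour groups. With equal totals all 3 were called, at 0.73 between Akt/Nras/Foxo1AAA tumours and normal liver (adjusted p = 0.000476), 1.18 between Akt/Nras tumours and normal liver (adjusted p = 8.97e-06) and -0.45 between the tumour groups (adjusted p = 0.0358).

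Cth (ENSMUSG00000028179, chromosome 3, 157599885 to 157630714, minus strand) had 20.8, 17.5 and 17.4 FPKM in Akt/Nras/Foxo1AAA tumours, 8.30, 6.67 and 10.8 FPKM in Akt/Nras tumours, and 52.8, 61.3, 58.3 and 52.4 FPKM in normal livers. The 3 groups were separate, with Akt/Nras tumours lowest and Akt/Nras/Foxo1AAA tumours in the middle. Cth fell 3.03-fold in Akt/Nras/Foxo1AAA tumours (log2 change -1.55 ± 0.14 SE, adjusted p = 4.4e-06) and 6.54-fold in Akt/Nras tumours (-2.60 ± 0.14 SE, adjusted p = 8.02e-08). It was 2.16-fold higher in Akt/Nras/Foxo1AAA than in Akt/Nras tumours (1.04 ± 0.15 SE, adjusted p = 0.00416), the smallest adjusted p of the 10 genes in that comparison. Gm43314 overlaps Cth on the same strand and reached 1.1 FPKM.

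The ratio of Cbs to Cth, free of the scaling, was 2.37, 3.06 and 3.55 in Akt/Nras/Foxo1AAA tumours, 8.46, 8.97 and 5.44 in Akt/Nras tumours, and 1.13, 0.847, 0.811 and 1.09 in normal livers. The 3 groups did not overlap. By FPKM the transcripts of both enzymes were about level in normal liver, and that of Cbs was the more abundant in all 6 tumours. This depends on the deposited gene lengths, 7485 bases for Cbs and 2791 bases for Cth. Reads not divided by length gave higher ratios in every group.

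**Figure D3:**
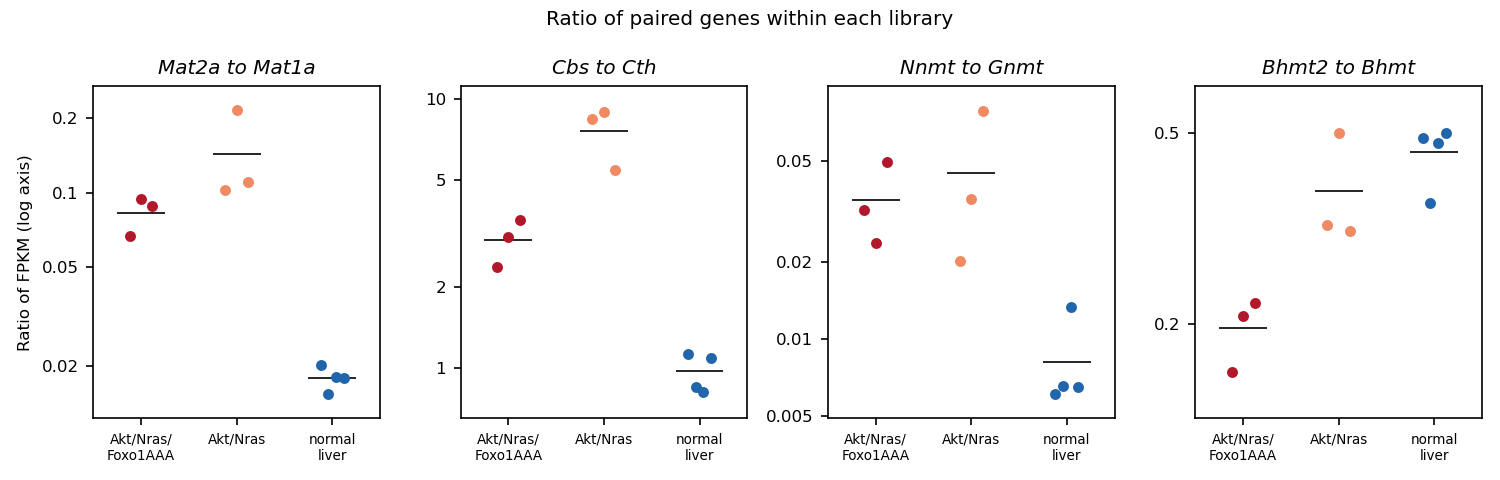
Ratio of FPKM of 4 gene pairs in every library, on log axes, with the group mean as a line, for Akt/Nras/Foxo1AAA tumours, Akt/Nras tumours and normal livers. Mat2a to Mat1a and Cbs to Cth separate all 3 groups, with Akt/Nras tumours highest and normal livers lowest; in Nnmt to Gnmt normal livers are lowest, and in Bhmt2 to Bhmt Akt/Nras/Foxo1AAA tumours are lowest.

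The promoter windows of a few of these genes are printed because their RNAs moved differently: Gnmt fell most against normal liver, the neighbours Bhmt and Bhmt2 differed in their order of the groups, and Mat2a rose. The windows run from 250 bases before to 50 bases after the RefSeq start on build GRCm38.p6, and 7 of the 10 genes had one (8 windows, since Pemt had a pair). They lie on the minus strand at chr17:46729116-46729415 for Gnmt, chr13:93637709-93638008 for Bhmt, chr13:93674253-93674552 for Bhmt2 and chr6:72439507-72439806 for Mat2a, and are read 5′ to 3′ along the gene. Capitals mark the CCAAT box (CCAAT, or ATTGG on the other strand) and the GC box (GGGCGG, or CCGCCC on the other strand).
Gnmt: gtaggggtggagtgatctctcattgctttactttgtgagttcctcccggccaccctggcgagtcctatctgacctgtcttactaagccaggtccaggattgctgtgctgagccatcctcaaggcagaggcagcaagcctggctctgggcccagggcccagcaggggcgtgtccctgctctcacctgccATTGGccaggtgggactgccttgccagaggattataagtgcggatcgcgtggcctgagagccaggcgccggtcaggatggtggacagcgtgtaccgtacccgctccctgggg
Bhmt: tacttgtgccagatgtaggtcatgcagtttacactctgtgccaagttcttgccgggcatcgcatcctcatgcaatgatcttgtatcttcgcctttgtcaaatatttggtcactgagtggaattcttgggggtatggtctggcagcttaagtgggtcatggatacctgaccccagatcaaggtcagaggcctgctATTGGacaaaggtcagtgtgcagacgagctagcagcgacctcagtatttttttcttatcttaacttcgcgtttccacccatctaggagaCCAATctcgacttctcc
Bhmt2: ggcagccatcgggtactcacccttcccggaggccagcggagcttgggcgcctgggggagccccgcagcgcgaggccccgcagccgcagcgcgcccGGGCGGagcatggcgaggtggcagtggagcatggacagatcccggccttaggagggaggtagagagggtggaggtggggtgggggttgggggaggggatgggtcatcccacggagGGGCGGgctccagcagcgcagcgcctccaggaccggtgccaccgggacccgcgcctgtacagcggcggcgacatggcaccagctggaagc
Mat2a: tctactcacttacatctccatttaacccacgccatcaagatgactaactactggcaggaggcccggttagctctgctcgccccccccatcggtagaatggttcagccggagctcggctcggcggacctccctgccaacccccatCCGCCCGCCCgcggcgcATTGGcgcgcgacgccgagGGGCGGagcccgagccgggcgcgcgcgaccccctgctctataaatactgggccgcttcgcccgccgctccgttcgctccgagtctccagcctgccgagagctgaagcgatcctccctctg
Bhmt and Bhmt2 differ most in base composition, with 48.0% G and C in the Bhmt window and 73.7% in that of Bhmt2, beside 62.0% for Gnmt and 67.0% for Mat2a. Bhmt held 2 CCAAT boxes and no GC box, Bhmt2 held 2 GC boxes and no CCAAT box, Gnmt held 1 CCAAT box, and Mat2a held 1 CCAAT box and 3 GC boxes, of which a pair overlap in 1 run of capitals. Of all 32851 windows of this length 37.4% held a CCAAT box and 35.7% a GC box on either strand. The FOXO core GTAAACA, present in 3.65% of all windows, and the ATF4 response element TGATGNAA, present in 3.97%, were in none of the 8 windows searched on both strands, and the E-box CACGTG, present in 7.15%, was in that of Cbs only. These are matches of letters within 300 bases and say nothing of binding.

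Single libraries moved with the whole set of genes. Among Akt/Nras tumours replicate 2 was the lowest for 9 of the 10 genes, Cbs being the exception, and replicate 3 was the highest for 7. Among Akt/Nras/Foxo1AAA tumours replicate 1 was the highest for 7, all but Mat2a, Cbs and Nnmt. The summed FPKM of 6 hepatocyte markers was 47458 in Akt/Nras/Foxo1AAA replicate 1, against 43204 and 35241 in replicates 2 and 3, and 31336 in Akt/Nras replicate 2, against 29628 and 29142 in replicates 1 and 3. Alb makes up most of these sums, and Akt/Nras replicate 2 was the lowest Akt/Nras tumour for 3 of the 6 markers, Apoa1, Ahsg and Hnf4a. Over the 10 libraries Mat1a, Gnmt, Bhmt2, Ahcy, Cth and Pemt varied together, with Pearson's r of 0.953 to 0.997 for their 15 pairs of log2 values, a description over libraries that share group, scaling and depth.

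Cell type markers differed between the groups too. Beside their counts stand the shares of all genes at the deposited scale. In Akt/Nras/Foxo1AAA tumours 26.8% were called higher and 36.5% lower, and in Akt/Nras tumours 31.1% higher and 37.9% lower. Between the tumour groups 7.93% were called higher and 4.13% lower. The hepatocyte markers (Alb, Ttr, Apoa1, Apob, Ahsg and Hnf4a) summed to 35241 to 47458 FPKM in Akt/Nras/Foxo1AAA tumours, 29142 to 31336 FPKM in Akt/Nras tumours and 69246 to 73796 FPKM in normal livers, with 5 called lower and 1 higher in Akt/Nras/Foxo1AAA tumours, 5 lower in Akt/Nras tumours, and 4 higher in Akt/Nras/Foxo1AAA than in Akt/Nras tumours. Alb, Hnf4a and Apob, lower at the deposited scale, did not stay so with equal totals, where in Akt/Nras/Foxo1AAA tumours the log2 change was 0.08 for Alb, 0.26 for Hnf4a and 0.43 for Apob, and in Akt/Nras tumours 0.01 for Alb, 0.08 for Hnf4a and -0.06 for Apob, a call lost. At that scaling 2 of the 6 were still called lower in each tumour group. Apoa1 was among them, at -0.77 in Akt/Nras/Foxo1AAA and -1.67 in Akt/Nras tumours. Called higher were 3 in Akt/Nras/Foxo1AAA tumours, Hnf4a, Apob and Ahsg, and 1 in Akt/Nras tumours, Ahsg. The cholangiocyte markers (Krt19, Krt7, Epcam, Sox9 and Spp1) summed to 2658 to 5383 FPKM in Akt/Nras/Foxo1AAA tumours, 4099 to 5796 FPKM in Akt/Nras tumours and 16.02 to 24.1 FPKM in normal livers, with 3 of 4 tested called higher in Akt/Nras/Foxo1AAA and 4 of 4 in Akt/Nras tumours, and 2 lower in Akt/Nras/Foxo1AAA than in Akt/Nras tumours. Spp1 makes up most of these sums, with means of 3953 FPKM in Akt/Nras/Foxo1AAA tumours, 5032 in Akt/Nras tumours and 16.9 in normal livers. Krt19 was the tested marker not called in Akt/Nras/Foxo1AAA tumours, at a mean of 1.77 FPKM beside 0.894 in normal livers. Krt7, not tested, had means of 0.254 FPKM in Akt/Nras/Foxo1AAA tumours, 1.62 in Akt/Nras tumours and 0.238 in normal livers.

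Markers of immune and supporting cells were also higher in tumours. The 5 monocyte and macrophage markers (Adgre1, Cd68, Csf1r, Lyz2 and Cd14) summed to 249.2 to 554 FPKM in Akt/Nras/Foxo1AAA tumours, 417 to 501 FPKM in Akt/Nras tumours and 39.7 to 65.5 FPKM in normal livers, with 5 of 5 called higher in each. Cd14 makes up most of the tumour sums, with log2 changes of 6.63 in Akt/Nras/Foxo1AAA and 6.92 in Akt/Nras tumours. Those of the other markers were 0.84 to 1.52 in Akt/Nras/Foxo1AAA and 0.65 to 1.69 in Akt/Nras tumours. The 6 stellate cell and fibroblast markers summed to 86.4 to 115 FPKM in Akt/Nras/Foxo1AAA tumours, 142 to 167 FPKM in Akt/Nras tumours and 13.3 to 14.6 FPKM in normal livers, with 6 of 6 called higher in each tumour group and 3 lower in Akt/Nras/Foxo1AAA than in Akt/Nras tumours. The 4 endothelial markers summed to 19.4 to 25.7 FPKM in Akt/Nras/Foxo1AAA tumours, 21.5 to 25.9 FPKM in Akt/Nras tumours and 12.8 to 14.5 FPKM in normal livers, with 2 called higher in each tumour group. The 2 neutrophil markers summed to 6.55 to 23.96 FPKM in Akt/Nras/Foxo1AAA tumours, 11.03 to 23.9 FPKM in Akt/Nras tumours and 0.748 to 3.85 FPKM in normal livers, with both called higher in each tumour group. The 4 lymphocyte markers reached at most 1.24 FPKM in sum in any library, none was tested, and Cd79a was at 0 in 1 or more libraries. Between the tumour groups none of the 27 tested markers was called by limma with those groups alone in the fit, with 4 higher and 7 lower in Akt/Nras/Foxo1AAA tumours at an unadjusted p under 0.05. Here too the share of all genes at that unadjusted p is not given. The part of these shifts in the changes of the methionine genes was not tested.

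Beyond the 10 genes, 77 gene symbols of neighbouring steps were listed, of which 75 were in the table and 73 were tested. Called genes were mostly lower at the deposited scale: 12 were called higher and 52 lower in Akt/Nras/Foxo1AAA tumours (median log2 change -0.55), and 13 higher and 50 lower in Akt/Nras tumours (median -0.77), beside medians of -0.09 and -0.07 over all genes. Of all genes at that scale 26.8% were called higher and 36.5% lower in Akt/Nras/Foxo1AAA tumours, and 31.1% higher and 37.9% lower in Akt/Nras tumours. Between the tumour groups 20 were higher in Akt/Nras/Foxo1AAA tumours and 1 lower (median 0.19, beside -0.01), where 7.93% of all genes were called higher and 4.13% lower. These calls too borrow the spread of the normal livers: with the tumour groups alone in the fit limma called 1 of the 73, Inmt, higher (adjusted p = 0.0459) and 0 lower, with 26 higher and 3 lower at an unadjusted p under 0.05. No share of all genes at that unadjusted p is given, so these unadjusted counts have no background beside them. With equal totals the splits against normal liver were 26 higher and 27 lower in Akt/Nras/Foxo1AAA tumours and 33 higher and 28 lower in Akt/Nras tumours, and that between the tumour groups 11 higher and 12 lower. The shares of all genes at that scaling were 61.0% higher and 13.5% lower in Akt/Nras/Foxo1AAA tumours, 69.2% higher and 13.8% lower in Akt/Nras tumours, and 5.27% higher and 26.0% lower (31.3% together) between the tumour groups. The shares at each scaling are also the background for the counts of the single lists below. Lists with 0 genes higher against normal liver by limma had 0 at an unadjusted p under 0.05 and with voom too. In brackets after a gene stands its log2 change ± SE, which passed the test against normal liver in both tumour groups, or between the tumour groups where this is said.

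In the supply of betaine and the recycling of its methyl groups, 0 of 6 tested genes were called higher and 6 lower in Akt/Nras/Foxo1AAA tumours (median log2 change -1.46), and 0 higher and 4 lower in Akt/Nras tumours (median -2.26). Equal totals gave 1 higher and 4 lower in Akt/Nras/Foxo1AAA tumours, and 2 higher and 4 lower in Akt/Nras tumours. Sardh, which demethylates the sarcosine that GNMT makes, fell (-2.27 ± 0.18 in Akt/Nras/Foxo1AAA and -3.49 ± 0.18 in Akt/Nras tumours), and so did Dmgdh, which demethylates the dimethylglycine that BHMT makes (-1.63 ± 0.18 in Akt/Nras/Foxo1AAA and -2.68 ± 0.18 in Akt/Nras tumours). Both were higher in Akt/Nras/Foxo1AAA than in Akt/Nras tumours (1.23 ± 0.19 for Sardh, 1.05 ± 0.19 for Dmgdh), and the choline transporter Slc44a1 was the 1 gene of all the lists called lower there (-0.48 ± 0.12).

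For remethylation through folate, 1 of 8 tested genes was called higher and 6 lower in Akt/Nras/Foxo1AAA tumours (median log2 change -0.57), and 1 higher and 5 lower in Akt/Nras tumours (median -0.68). Equal totals gave 1 higher and 3 lower in Akt/Nras/Foxo1AAA tumours, and 4 higher and 3 lower in Akt/Nras tumours. Shmt1, a cytosolic enzyme that loads one-carbon units onto folate, fell (-1.65 ± 0.13 in Akt/Nras/Foxo1AAA and -2.32 ± 0.13 in Akt/Nras tumours), as did Mthfd1, which interconverts those units (-1.73 ± 0.10 in Akt/Nras/Foxo1AAA and -2.17 ± 0.10 in Akt/Nras tumours). Shmt1 was higher in Akt/Nras/Foxo1AAA than in Akt/Nras tumours (0.67 ± 0.14), and Mthfd1 too (0.44 ± 0.11), a call lost with equal totals.

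Among genes downstream of cysteine, 3 of 12 tested genes were called higher and 8 lower in Akt/Nras/Foxo1AAA tumours (median log2 change -0.80), and 3 higher and 9 lower in Akt/Nras tumours (median -1.24). Equal totals gave 5 higher and 6 lower in Akt/Nras/Foxo1AAA tumours, and 3 higher and 6 lower in Akt/Nras tumours. Gclc, the catalytic subunit of glutamate-cysteine ligase, rose (0.48 ± 0.13 in Akt/Nras/Foxo1AAA and 0.71 ± 0.13 in Akt/Nras tumours), as did Gss, glutathione synthetase (0.63 ± 0.07 in Akt/Nras/Foxo1AAA and 0.44 ± 0.07 in Akt/Nras tumours), while Gclm, the modifier subunit of the ligase, named after its values were seen, fell at the deposited scale (-0.32 ± 0.11 in Akt/Nras/Foxo1AAA and -0.85 ± 0.11 in Akt/Nras tumours). With equal totals Gclm stood at 0.39 in Akt/Nras/Foxo1AAA tumours, now called higher (adjusted p = 0.00555), and at 0.10 in Akt/Nras tumours, not called (adjusted p = 0.356). Suox, sulfite oxidase, fell (-1.51 ± 0.14 in Akt/Nras/Foxo1AAA and -1.96 ± 0.14 in Akt/Nras tumours), and so did Mpst, a sulfurtransferase that can yield sulfide (-1.38 ± 0.14 in Akt/Nras/Foxo1AAA and -1.96 ± 0.14 in Akt/Nras tumours). Between the tumour groups 4 of these 12 were higher in Akt/Nras/Foxo1AAA tumours, led by Fmo1, a flavin monooxygenase (0.70 ± 0.13), and Mpst (0.58 ± 0.14), whose call was lost with equal totals.

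In polyamine synthesis, which draws on decarboxylated S-adenosylmethionine, and the methionine salvage that follows it, 5 of 12 tested genes were called higher and 5 lower in Akt/Nras/Foxo1AAA tumours (median log2 change 0.19), and 6 higher and 5 lower in Akt/Nras tumours (median 0.34). Equal totals gave 8 higher and 1 lower in Akt/Nras/Foxo1AAA tumours, and 9 higher and 1 lower in Akt/Nras tumours. Smox, spermine oxidase, rose (2.19 ± 0.20 in Akt/Nras/Foxo1AAA and 2.59 ± 0.20 in Akt/Nras tumours), and so did Sat1, the acetyltransferase of spermidine and spermine (0.91 ± 0.18 in Akt/Nras/Foxo1AAA and 1.30 ± 0.18 in Akt/Nras tumours). Paox, which oxidises acetylated polyamines, fell (-1.64 ± 0.14 in Akt/Nras/Foxo1AAA and -1.50 ± 0.14 in Akt/Nras tumours). Apip of the salvage pathway fell at the deposited scale (-0.86 ± 0.14 in Akt/Nras/Foxo1AAA and -0.91 ± 0.14 in Akt/Nras tumours), but both calls were lost with equal totals, at -0.17 in Akt/Nras/Foxo1AAA and 0.01 in Akt/Nras tumours. None of these 12 was called between the tumour groups by limma or with voom, 2 were lower at an unadjusted p under 0.05, and 3 were called lower with equal totals.

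Of other methyltransferases of small molecules, 1 of 11 tested genes was called higher and 9 lower in Akt/Nras/Foxo1AAA tumours (median log2 change -1.06), and 1 higher and 10 lower in Akt/Nras tumours (median -1.47). Equal totals gave 2 higher and 7 lower in Akt/Nras/Foxo1AAA tumours, and 2 higher and 7 lower in Akt/Nras tumours. Inmt, an indolethylamine N-methyltransferase, fell (-6.13 ± 0.15 in Akt/Nras/Foxo1AAA and -7.80 ± 0.15 in Akt/Nras tumours) by more than any of the 10 cycle genes, and Mettl7b, a thiol methyltransferase, fell as well (-1.70 ± 0.11 in Akt/Nras/Foxo1AAA and -2.51 ± 0.11 in Akt/Nras tumours), whereas As3mt, which methylates arsenic, rose (1.30 ± 0.16 in Akt/Nras/Foxo1AAA and 1.06 ± 0.16 in Akt/Nras tumours). Between the tumour groups 5 of the 11 were higher in Akt/Nras/Foxo1AAA tumours, led by Inmt (1.67 ± 0.16) and Mettl7a1 (0.86 ± 0.16).

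On the nicotinamide side, 0 of 7 tested genes were called higher and 5 lower in Akt/Nras/Foxo1AAA tumours (median log2 change -0.56), and 0 higher and 6 lower in Akt/Nras tumours (median -1.04). Equal totals gave 0 higher and 3 lower in Akt/Nras/Foxo1AAA tumours, and 1 higher and 3 lower in Akt/Nras tumours. Aox3, of the aldehyde oxidases that oxidise methylnicotinamide, fell (-3.23 ± 0.23 in Akt/Nras/Foxo1AAA and -5.09 ± 0.23 in Akt/Nras tumours), as did Naprt, which acts on nicotinic acid to make NAD (-1.03 ± 0.13 in Akt/Nras/Foxo1AAA and -1.79 ± 0.13 in Akt/Nras tumours). Both were higher in the tumours with Foxo1AAA than in those without it (1.86 ± 0.24 for Aox3, 0.76 ± 0.14 for Naprt).

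On the choline and ethanolamine routes to phosphatidylcholine, 2 of 12 tested genes were called higher and 9 lower in Akt/Nras/Foxo1AAA tumours (median log2 change -0.33), and 2 higher and 8 lower in Akt/Nras tumours (median -0.45). Equal totals gave 7 higher and 3 lower in Akt/Nras/Foxo1AAA tumours, and 8 higher and 3 lower in Akt/Nras tumours. Chka, choline kinase alpha, the first step from choline, rose (2.21 ± 0.09 in Akt/Nras/Foxo1AAA and 2.19 ± 0.09 in Akt/Nras tumours). Pcyt1b of the next step rose too (1.23 ± 0.13 in Akt/Nras/Foxo1AAA and 1.57 ± 0.13 in Akt/Nras tumours). At the deposited scale Pcyt1b had means of 1.743 FPKM in Akt/Nras/Foxo1AAA tumours, 2.444 in Akt/Nras tumours and 0.1576 in normal livers. Pcyt1a of the same step, named after its values were seen, was more abundant and, at the deposited scale only, lower in all tumours than in all normal livers. Its means at that scale were 8.997 FPKM in Akt/Nras/Foxo1AAA tumours, 7.362 in Akt/Nras tumours and 13.6 in normal livers. Equal totals divide tumour values by 0.664 to 0.845 and normal liver values by 1.314 to 1.412, and the Pcyt1a groups then overlap. Chpt1 of the same list, also named afterwards, was lower in all tumours at the deposited scale too. All 6 tumours lay above all 4 normal livers in Chka and below them in Pemt. Etnk2, an ethanolamine kinase, fell (-2.50 ± 0.12 in Akt/Nras/Foxo1AAA and -3.04 ± 0.12 in Akt/Nras tumours), as did Pcyt2 of the next step of that route (-1.24 ± 0.16 in Akt/Nras/Foxo1AAA and -2.30 ± 0.16 in Akt/Nras tumours). Pcyt2 was higher in Akt/Nras/Foxo1AAA than in Akt/Nras tumours (1.06 ± 0.17), and Etnk2 too (0.54 ± 0.12), a call lost with equal totals.

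Of the partners of the cycle enzymes, 0 of 5 tested genes were called higher and 4 lower in Akt/Nras/Foxo1AAA tumours (median log2 change -0.34), and 0 higher and 3 lower in Akt/Nras tumours (median -0.35). Equal totals gave 2 higher and 0 lower in Akt/Nras/Foxo1AAA tumours, and 4 higher and 1 lower in Akt/Nras tumours. Adk, adenosine kinase, which removes the adenosine that AHCY releases, fell (-0.86 ± 0.08 in Akt/Nras/Foxo1AAA and -1.15 ± 0.08 in Akt/Nras tumours) and was higher in Akt/Nras/Foxo1AAA than in Akt/Nras tumours (0.29 ± 0.08). With equal totals its calls in Akt/Nras/Foxo1AAA tumours and between the tumour groups were lost. Mat2b, the regulatory subunit that binds the Mat2a product, fell at the deposited scale (-0.61 ± 0.10 in Akt/Nras/Foxo1AAA and -0.57 ± 0.10 in Akt/Nras tumours) and turned to 0.04 in Akt/Nras/Foxo1AAA and 0.30 in Akt/Nras tumours with equal totals.

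**Figure D4:**
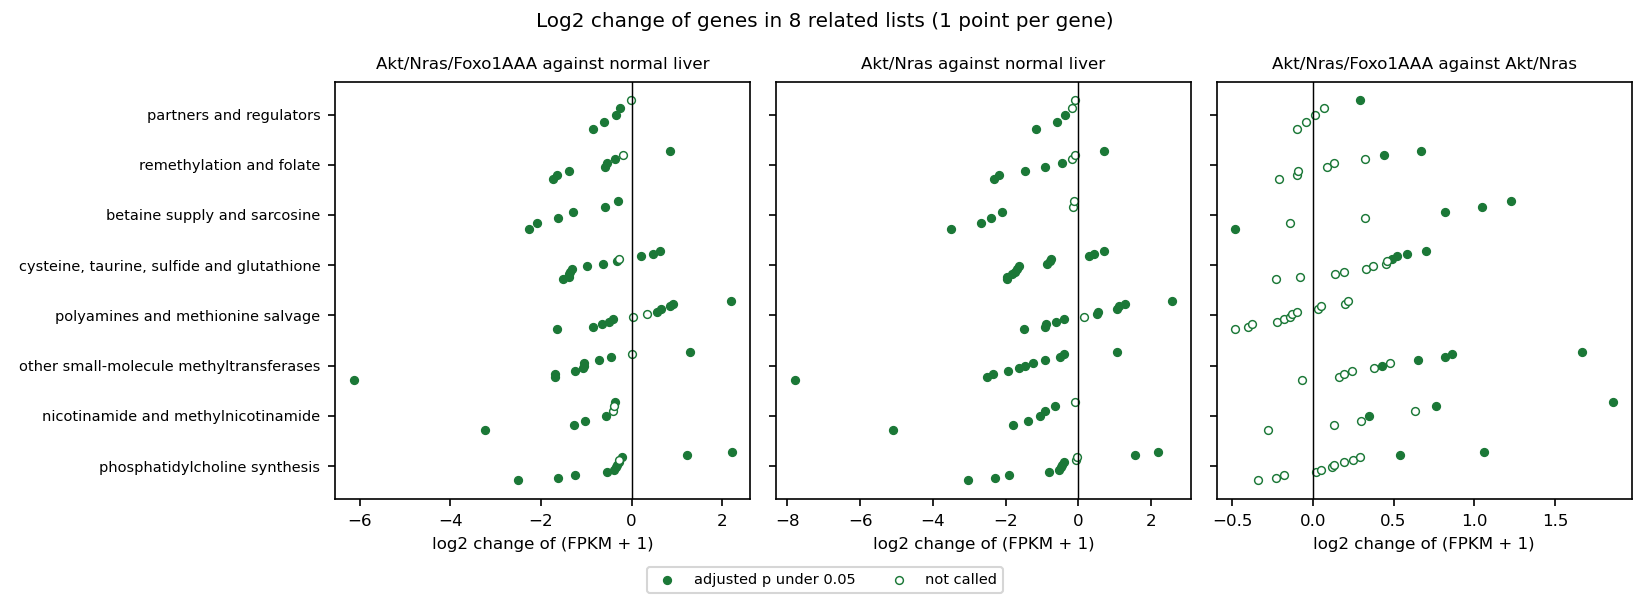
Log2 change of (FPKM + 1) of every tested gene in 8 lists of neighbouring steps, 1 point per gene, in the 3 comparisons; filled points passed an adjusted p of 0.05 and open points did not. Inmt, at -6.13 in Akt/Nras/Foxo1AAA and -7.80 in Akt/Nras tumours, and Aox3, at -3.23 in Akt/Nras/Foxo1AAA and -5.09 in Akt/Nras tumours, lie farthest left, and Smox and Chka lie farthest right in both comparisons with normal liver; between the tumour groups most filled points are right of 0.

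The genes whose log2 values ran most like those of a cycle gene over the 10 libraries were taken from 3907 tested genes with a mean of at least 10 FPKM. Cdo1, cysteine dioxygenase, and Hal were closest to Mat1a (Pearson's r = 0.999 and 0.994), Tmem219 and Ahcy to Gnmt (0.998 and 0.997), and Lipc and Slc27a5 to Pemt (0.998 and 0.998). Bhmt2 ran closest to Dmgdh and Akr7a5 (0.997 and 0.996), Cth to Ces1g and Cps1 (0.999 and 0.996), and Ahcy to its copy Ahcyl and Dcxr (0.999 and 0.998). In the deposited coordinates Dmgdh lies beside Bhmt2 on the opposite strand, from 93810941, where Bhmt2 ends at 93810810. Mat2a was closest to Lars and Serinc5 (0.981 and 0.965) and Bhmt to Rab1b and Pafah2 (0.970 and 0.950). Likeness was lowest for Cbs, with Id1 and Ncstn (0.894 and 0.873), and for Nnmt, with Tsc22d3 and Rps2-ps13 (0.872 and 0.844). The libraries share group and scaling, so these values describe and do not test.

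Of the 10 genes, Gnmt, Ahcy, Mat1a, Pemt, Cth and Bhmt2 stayed lower than normal liver in both tumour groups under all 4 scalings drawn, and Mat2a stayed higher.

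**Figure D5:**
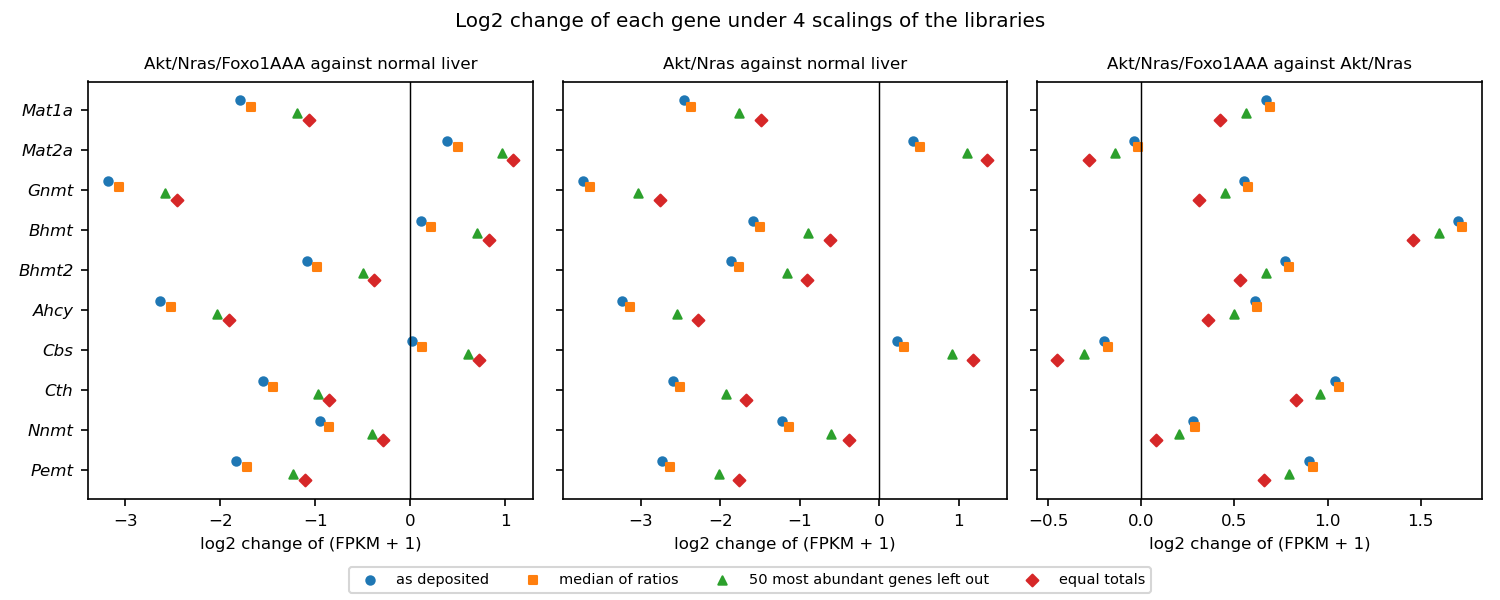
Log2 change of (FPKM + 1) of the 10 genes in each comparison with the FPKM as deposited, with median-of-ratios scaling, with totals that leave out the 50 most abundant genes, and with equal totals. Equal totals move every gene to the right against normal liver, by which Cbs goes to 0.73 in Akt/Nras/Foxo1AAA and 1.18 in Akt/Nras tumours and Bhmt to 0.83 in Akt/Nras/Foxo1AAA and -0.62 in Akt/Nras tumours, and to the left between the tumour groups, where Bhmt, Bhmt2, Cth and Pemt stay right of 0.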

How the data were processed

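RNA sequencing of 10 mouse samples was used, 3 Akt/Nras/Foxo1AAA tumours, 3 Akt/Nras tumours and 4 normal livers, grouped and numbered by their titles. The labels' protocols name a Quick-RNA Miniprep kit for extraction and either polyA capture or rRNA removal for the libraries. A series-wide table of FPKM was deposited by the authors, with 56748 genes, 1 column per library and gene lengths, per the file headers. The submitters' processing notes name FastQC 0.11.7 and GRCm38 with no role, and aligner, counter and annotation were each not given in the sources used here. Of 52125 genes shared with the GRCm38 annotation 1524 had identical coordinates, and none of the 10 genes, so the build of the deposited coordinates is unnamed.

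FPKM times gene length gave whole reads, within 0.02 reads, for 100% of values, and the number the reads were divided by was 0.875 to 0.928 of the summed reads in Akt/Nras/Foxo1AAA tumours, 1.002 to 1.061 in Akt/Nras tumours but 0.629 to 0.668 in normal livers, which bears on every comparison of levels between groups. Genes with at least 1 FPKM in at least 3 of 10 libraries (12439) were tested on log2(FPKM + 1) in 1 fit over all libraries with limma 3.58.1 under R 4.3.3 (lmFit, contrasts.fit and trended eBayes, two-sided), with Benjamini-Hochberg adjustment over all tested genes. This scale understates changes of low genes. The test was checked on simulated data. Alternatives were 3 other scalings, another pseudocount, no or a higher minimum, the compared groups alone, array weights, no variance trend, a replicate block, each library left out, and, chosen after seeing the data, voom on the recovered reads. The 10 genes, the related lists and the markers were chosen with earlier results of these data known. From each related list the text names up to 2 called genes with the largest rise and fall against normal liver, and up to 2 per direction between tumour groups. For each of the 10 genes it names the 2 genes most like it by Pearson's r. Promoters are RefSeq sequences. The symbols Tmt1a and Tmt1b, listed beside Mettl7a1 and Mettl7b, were absent from the table, while Mettl7a1 and Mettl7b were present and tested. A gene that this rule would name is not reported here.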

Additional observations from a re-analysis of the deposited data

Results flagged for a closer look

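In normal liver, 14 groups of 4 values (10 genes and 4 ratios) were examined for a library far from the others, and 2 such values were found; chance gives about 1 in 20 groups. Mat2a was 18.2 FPKM in normal liver replicate 2, while the next library was at 20.5 and the highest at 20.7, a gap of 0.894 of the range against a critical value of 0.829. The ratio of Nnmt to Gnmt was 0.0134 in normal liver replicate 3, while the next was 0.00656 and the lowest 0.00612, a gap of 0.939 of the range. That library also had the highest Nnmt of all, 25.1 FPKM.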

How the results depend on the processing

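The falls of Gnmt, Ahcy, Mat1a, Pemt, Cth and Bhmt2 and the rise of Mat2a against normal liver passed the threshold in both tumour groups under every alternative run, with each library left out too. The genes called higher in Akt/Nras tumours against normal liver became 2 instead of 1, Cbs joining Mat2a, with equal totals, with the 50 most abundant genes set aside from the scaling, with median-of-ratios scaling and with voom. In Akt/Nras/Foxo1AAA tumours the genes called higher became 3 with equal totals and 2 with those 50 genes left out. Between the tumour groups, instead of 4 genes, 2 were called higher with no minimum, 0 with the 6 tumour libraries alone, 2 to 4 with a library left out, and 5 with voom, where Ahcy joined them (0.64, adjusted p = 0.0407); 1 was called lower with equal totals. No pairing of libraries by replicate number was seen: same-numbered deviations correlated at -0.17 to 0.112 over 9 pairs, 1 of them over 0.1. Differently numbered deviations correlated at -0.15 to 0.196. With 3 or 4 libraries per group these values cannot exclude a pairing. With the replicate block 1 of the 10 genes, Cth, and 468 of all genes were called between the tumour groups, against 1500 of all genes without it, and Nnmt was called in Akt/Nras/Foxo1AAA tumours against normal liver (-1.05, adjusted p = 0.0169), as it was with those groups alone (-0.95, adjusted p = 0.0463) and with array weights (-1.38, adjusted p = 0.0112). All genes called between the tumour groups numbered 10 with those groups alone, 3668 with array weights, 3890 with equal totals (656 higher and 3234 lower) and 923 with no minimum, and 550 without Akt/Nras/Foxo1AAA replicate 1, 632 without replicate 2 and 901 without Akt/Nras replicate 1.

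Among the 10 genes, directions that turned belonged to differences that were not called: with array weights Cbs in Akt/Nras/Foxo1AAA tumours against normal liver was -0.02 and Nnmt between the tumour groups -0.83. With a library left out, Bhmt in Akt/Nras/Foxo1AAA tumours against normal liver ranged over -0.22 to 0.37, Cbs over -0.07 to 0.09, and between the tumour groups Mat2a over -0.09 to 0.06 and Nnmt over -0.07 to 0.89. The call of Nnmt in Akt/Nras tumours was also lost with the 50 genes left out (adjusted p = 0.254), median-of-ratios scaling (0.0544), no minimum (0.0927), those groups alone (0.0504), array weights (0.323) and voom (0.0559). Ratios of reads not divided by gene length were, for Mat2a to Mat1a, 0.1077 in Akt/Nras/Foxo1AAA tumours and 0.02316 in normal livers; for Cbs to Cth, 8.024 in Akt/Nras/Foxo1AAA tumours, 20.44 in Akt/Nras tumours and 2.599 in normal livers; and for Bhmt2 to Bhmt, 0.08431 in Akt/Nras/Foxo1AAA tumours, 0.1624 in Akt/Nras tumours and 0.1956 in normal livers. The cause of these shifts was not tested, other than the lengths in the ratios. The planned count-model alternatives were not run, since the deposited values are FPKM. Depth limits Nnmt most, at 80 to 453 reads per library.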
